A study of Drosophila melanogaster with 13 samples.

Results

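The data described here are the control head transcriptomes of a study of Drosophila melanogaster in which the eye-directed driver GMR-Gal4 was combined with RNAi against endosomal Rab proteins. Members were chosen by their label alone: 4 of the 13 libraries came from flies with the driver and no RNAi construct, GMR-Gal4/WT. The other libraries were 5 of genotype GMR-Gal4/UAS-Rab5 RNAi and 4 of genotype GMR-Gal4/UAS-Rab7 RNAi. Heads of adults aged 5 days, raised at 25 °C, were dissected, and 1.3 ug of RNA per sample went into a SMARTer mRNA-Seq library. The driver is active in the pupal retina and adult eye, and every group carries it, so what the driver itself does to the head cannot be seen in these data. Neither sex, hour of dissection, number of heads nor batch is stated in the labels, and nothing says that the libraries came from separate crosses, so the spread between them may be technical.

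A fly head holds the compound eyes, the ocelli (simple light-sensing organs on the vertex), the brain with its glia, the antennae and mouthparts, muscle, a sheet of fat body and circulating blood cells. In the compound eye, opsins absorb light and activate a G protein and phospholipase cascade that opens TRP channels. Arrestins end the response, and pigment granules in neighbouring cells shield each ommatidium. The fat body stores lipid and secretes immune peptides into the hemolymph. In a library from whole heads every value is an average over these tissues, and fewer cells of a type cannot be told apart from less RNA per cell.

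Levels are given as FPKM, fragments scaled to gene length and to the library's depth, so levels of different genes can be compared per length. The controls held 17411145 to 19025418 reads on genes, and 1 read on a gene of 1 kilobase corresponded to 0.0538 to 0.0575 FPKM. Rab5 had 62.8, 54.7, 51.7, 55.1 and 64.5 FPKM in Rab5 RNAi replicates 1 to 5, 131, 146, 119 and 109.7 FPKM in the libraries labelled Rab7 RNAi and 115, 112, 113 and 122 FPKM in controls 1 to 4. Rab7 had 110.2, 117, 106, 114 and 120.0 FPKM in Rab5 RNAi, 101, 109, 92.9 and 87.3 FPKM in the libraries labelled Rab7 RNAi and 98.6, 99.7, 96.1 and 105 FPKM in controls, so that Rab7 levels in the libraries that carry its name overlapped those of the controls. Control 4 stood apart from the other controls. On the first component of log2 values, which held 61.0% of the variance among controls, it scored 20.3, and controls 1 to 3 scored -6.56, -8.71 and -5.07. Its chi-square against each other control over read counts was 30.7 to 39.1 per degree of freedom, whereas controls 1 to 3 differed from each other by 9.22 to 17.1, so no control was a repeat deposit of another. Some results that rest on control 4 are therefore given with and without it, and for many genes the value of each control is printed. Among 8894 genes with a mean of at least 1 FPKM and at least 50 reads, control 4 was the farthest library in 41.0%. It was higher in 1913 of these and lower in 1730. The share of all genes for which it held the highest or lowest value was not computed. Counts of such genes per list are therefore descriptions only.

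Of the 18344 genes in the files, 12607 were above 0 in all 4 controls and 2653 were listed at 0 in all 4. A mean of at least 1 FPKM was reached by 9942 genes, at least 10 FPKM by 6041, at least 100 FPKM by 640 and at least 1000 FPKM by 60. Protein-coding genes took 96.6% of the control reads, and 9199 of 13931 (66.0%) reached 1 FPKM, against 392 of 2507 genes for noncoding RNA (15.6%). Among noncoding RNAs named after their values were seen, lncRNA:CR42862 averaged 802 FPKM ± 184 and lncRNA:noe 413 FPKM ± 44.8 (SD, n = 4). The main chromosome arms were alike: among genes at 1 FPKM or more, the median was 13.7 FPKM on 2L, 14.46 on 2R, 13.5 on 3L, 14.1 on 3R and 13.8 on the X. The small chromosome 4 differed from them, with 103 of its 123 genes (83.7%) at 1 FPKM or more and a median of 28.9 FPKM, and in every control its median was at least 26.1 FPKM. Its highest genes were the ribosomal protein gene RpS3A at 808 FPKM ± 48.6, the ATP synthase gene ATPsynbeta at 475 FPKM ± 21.4 and the complex I gene ND-49 at 165 FPKM ± 13.3 (SD, n = 4 each). On the Y chromosome, 2 of 144 genes reached 1 FPKM, both unnamed gene models.

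The 20 highest genes held 19.8% ± 1.58 (SD, n = 4) of all summed FPKM and 12.4% ± 1.30 of the reads. Of these 20, 7 belonged to the mitochondrial genome and 8 encoded ribosomal proteins, and of the other five, ninaE, Arr2, Arr1 and trp act in phototransduction. CG8343, the remaining gene, averaged 1917 FPKM ± 520.4 and was lowest in control 4 (2022, 1987, 2455 and 1205 FPKM in controls 1 to 4). The mitochondrial large ribosomal RNA, mt:lrRNA, averaged 16945 FPKM ± 3537, and the cytochrome oxidase subunit mt:CoI 9066 FPKM ± 698. Among ribosomal proteins sta was highest at 2006 FPKM ± 295. Tsf1, a secreted iron-binding transferrin on the X chromosome, averaged 1398 FPKM ± 148 (SD, n = 4 for each value).

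**Figure D1:**
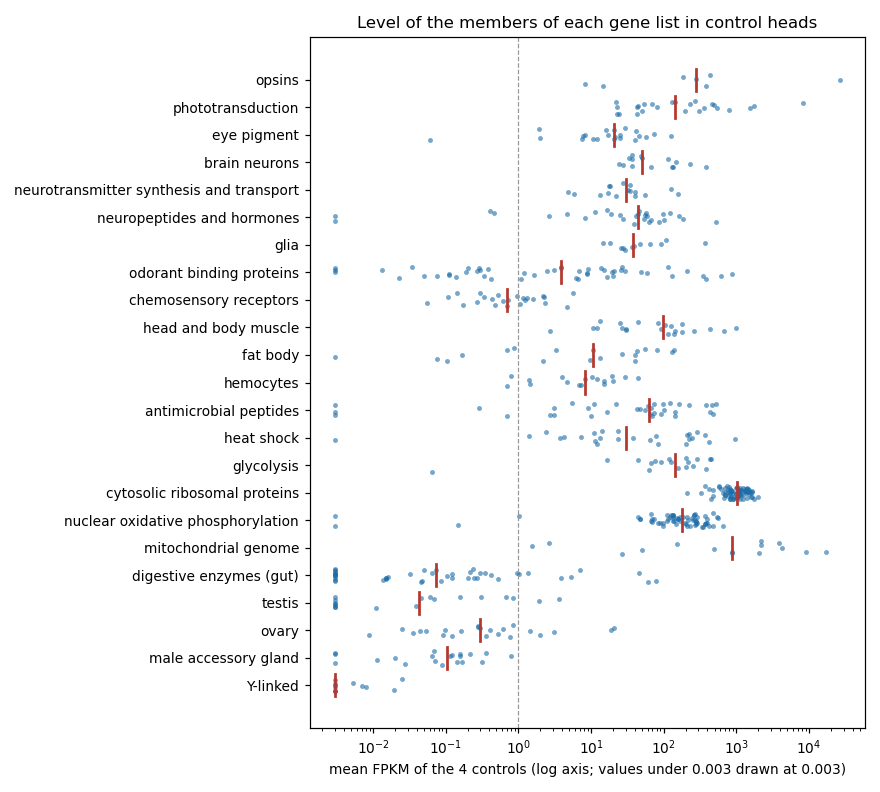
Mean FPKM of the 4 controls (log axis) for every member of 23 gene lists, 1 point per gene, with the list's median as a red bar and 1 FPKM as a dashed line. Eye, brain, muscle, ribosomal and mitochondrial lists lie to the right of 1 FPKM, and gut, testis, ovary, accessory gland and Y-linked lists lie mostly to its left.

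The highest transcript of the control heads came from the eye. ninaE (FBgn0002940, 3R 19886255 to 19888206), the opsin of the outer photoreceptors, was the highest gene of all, with 27651, 30165, 26519 and 21895 FPKM in controls 1 to 4, which was 3.48% to 4.66% of all reads. The inner photoreceptor opsins followed: Rh3, an ultraviolet opsin of the R7 cells, averaged 427 FPKM ± 38.8, Rh4, the other R7 ultraviolet opsin, 384 FPKM ± 120.2, Rh6, the green opsin of the R8 cells, 282 FPKM ± 36.3, and Rh5, the blue opsin of the R8 cells, 182 FPKM ± 74.5 (SD, n = 4 each). Rh3 and Rh4 did not differ beyond their spread, and every Rh6 value lay above every Rh5 value. The ranges of Rh4 and Rh6 overlapped only through control 4, where Rh4 was at 206 FPKM and Rh6 at 248 FPKM. In controls 1 to 3 every Rh4 value lay above every Rh6 value. Their means there were 443.5 FPKM ± 21.98 for Rh4 and 293 FPKM ± 34.8 for Rh6 (SD). Rh2, the opsin of the ocelli, averaged 14.46 FPKM ± 8.54, and Rh7, described in brain neurons, 8.15 FPKM ± 0.7701. With control 4 included, these levels did not differ beyond their spread. Without it, Rh2 averaged 18.7 FPKM ± 1.15 and Rh7 7.93 FPKM ± 0.771 (SD), and Rh2 lay above Rh7 in each of the other controls.

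Control 4 had the lowest value of 6 of the 7 opsins, the exception being Rh7. Rh2 (FBgn0003248, 3R 18899423 to 18901019) had 17.4, 19.4, 19.3 and 1.73 FPKM in controls 1 to 4, so that control 4 was the low library and the other 3 lay close together. Rh5 had 212, 239.8, 202 and 72.4 FPKM and Rh4 441, 467, 423 and 206 FPKM, again with control 4 alone at the low end. By contrast Rh3, with 449.6, 466, 415 and 379 FPKM, and Rh6, with 284, 332, 265 and 248 FPKM, differed less between libraries. Without control 4 the corrected coefficient of variation (the CV after subtraction of counting error) was 4.07% for Rh2, 8.94% for Rh5 and 4.86% for Rh4, against 58.8%, 41.03% and 31.3% with it. In Rab5 RNAi Rh2 was at 0.677, 1.34, 1.07, 1.09 and 0.195 FPKM in replicates 1 to 5, and in the libraries labelled Rab7 RNAi at 13.5, 27.9, 31.4 and 17.4 FPKM. Control 4 thus had an Rh2 level just above the range of Rab5 RNAi and far below that of the other controls.

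**Figure D2:**
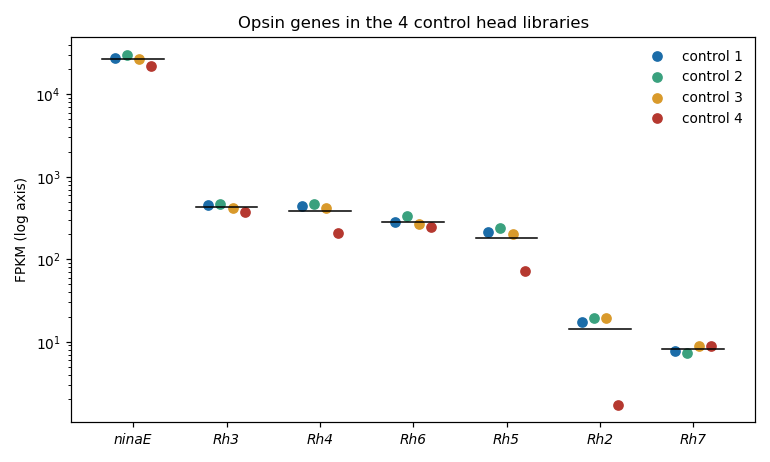
FPKM (log axis) of the 7 opsin genes in each of the 4 control libraries, coloured by library, with the mean as a black line. Control 4 is the lowest point for every opsin but Rh7, and for Rh2 it lies at 1.73 FPKM, against 17.4 to 19.4 FPKM in the other controls.

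All 25 phototransduction genes reached 1 FPKM, with a median of 143 FPKM. Arr2, the major arrestin, had 9077, 9030.4, 8143 and 6632 FPKM in controls 1 to 4, Arr1 had 1854, 1903, 1755 and 1470.3 FPKM and the channel trp 1501, 1539, 1467 and 1658 FPKM. Both arrestins were lowest in control 4, where trp was highest. Over the whole list control 4 was highest for 16 genes and lowest for 5. Genes of retinoid handling and opsin maturation, unlike the opsins, were high in control 4, which was highest for all 8 genes of that list with a computed spread. Pdh, a retinol dehydrogenase of the retina, had 275, 277, 236 and 463 FPKM, ninaB, the carotenoid-cleaving enzyme, 64.5, 61.96, 62.3 and 77.8 FPKM, and the carotenoid receptor santa-maria 7.698, 6.52, 7.27 and 13.1 FPKM. chp, which encodes the photoreceptor adhesion protein chaoptin, had 318, 308, 324 and 409 FPKM, and control 4 was highest for 10 of the 12 photoreceptor structure genes. The lens protein gene retinin had 432, 403, 310.2 and 684 FPKM and the lens cuticle gene Cpr72Ec 28.4, 26.9, 23.7 and 15.4 FPKM, so that control 4 was the highest library for the first gene and the lowest for the second. CarT, a carcinine transporter that serves histamine recycling at the photoreceptor terminal (named after its values were seen), had 35.7, 31.3, 34.8 and 83.3 FPKM.

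With control 4 included, eye pigment genes had the lowest median corrected CV of the gene lists described here, 4.81%, against 7.63% over all genes. Without control 4 their median was 4.14%, against 5.47% over all genes. Retinoid and opsin maturation genes (1.03%) and photoreceptor structure genes (2.51%) then lay lower. Of the eye pigment genes, 21 of 22 reached 1 FPKM. cl, a gene of drosopterin synthesis, averaged 125 FPKM ± 16.3, the ommochrome gene kar 72.9 FPKM ± 1.98, and Pu, the GTP cyclohydrolase that starts pteridine synthesis, 57.9 FPKM ± 2.3005 (SD, n = 4 each). kar had 73.6, 72.2, 70.7 and 75.3 FPKM in controls 1 to 4, which is a steady level. The exception was w, the white pigment transporter, with 6.702, 5.69, 7.303 and 11.8 FPKM and a corrected CV of 33.7%, and 10.9% without control 4.

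Neuronal genes were expressed in every control at similar levels. All 15 brain neuron markers reached 1 FPKM, with a median of 49.6 FPKM and a median corrected CV of 6.99%. The synaptic vesicle protein gene nSyb had 389, 379, 404 and 355 FPKM, the neuronal sodium pump subunit nrv3 226, 215, 243 and 232 FPKM and Snap25 141, 143, 148 and 165 FPKM. elav, the RNA-binding protein that marks neurons, had 34.005, 34.4, 38.96 and 27.5 FPKM, and the active zone gene brp 46.7, 47.97, 54.2 and 46.5 FPKM. Control 3 was the highest library for 13 of the 15 markers, by a median log2 deviation of 0.13 from the mean of the controls. Among genes of transmitter synthesis and transport, t, which frees histamine from carcinine, averaged 159 FPKM ± 7.78, Gad1, which makes GABA, 127 FPKM ± 8.51, and the glutamate transporter gene VGlut 55.6 FPKM ± 7.404 (SD, n = 4 each). ple, tyrosine hydroxylase of dopamine synthesis, had 30.2, 22.4, 23.9 and 35.2 FPKM and was the most variable of them at a corrected CV of 21.1%.

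All 12 glial genes were present, led by Gs2, glutamine synthetase, at 371 FPKM ± 38.8 and the glutamate transporter Eaat1 at 108 FPKM ± 6.29 (SD, n = 4 each). repo, the transcription factor that defines glia, had 27.8, 27.9, 27.9 and 26.8 FPKM, and its spread did not exceed counting error. wrapper, a glial surface protein, had 34.2, 35.8, 34.2 and 51.6 FPKM, with control 4 alone at the high end. Clock genes had a median corrected CV of 7.94%: cry, the blue-light receptor of the clock, had 88.5, 93.9, 87.03 and 95.4 FPKM, tim 79.3, 65.8, 77.8 and 60.8 FPKM and vri 41.4, 37.8, 38.4 and 24.1 FPKM. Control 4 was lowest for 6 of the 11 clock genes, among them vri, and highest for 3.

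Of 29 neuropeptide and hormone genes, 25 reached 1 FPKM, and control 4 was lowest for 22 of these 25. Nplp2 was the highest at 519 FPKM ± 50.8, followed by myosuppressin (Ms) at 183 FPKM ± 19.1 and drosulfakinin (Dsk) at 161 FPKM ± 33.4 (SD, n = 4 each). The insulin-like peptide Ilp2, made by a small cluster of brain cells and named after its values were seen, had 118, 124, 101 and 48.5 FPKM in controls 1 to 4. Ilp5, made by the same cells, had 12.5, 16.4, 12.1 and 4.21 FPKM, and Ilp3 had 41.1, 45.8, 41.5 and 37.3 FPKM. Control 4 was thus the lowest library for all 3, by a wide margin for Ilp2 and Ilp5 and by a smaller one for Ilp3. CNMa, another peptide gene, had 6.29, 6.22, 4.61 and 1.603 FPKM. Pdf, the clock neuron peptide, had 124, 150.1, 119.9 and 97.3 FPKM and a corrected CV of 17.4%.

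Odorant binding protein genes spanned wide levels, and a list of antennal genes was low and variable. Of 50 odorant binding protein genes, which encode secreted carriers of small molecules, 31 reached 1 FPKM. Obp44a averaged 873 FPKM ± 141, Obp19d 622 FPKM ± 70.3 and Obp56g 379.6 FPKM ± 38.5 (SD, n = 4 each). Receptor genes were far lower: 10 of 24 reached 1 FPKM, with Orco, the odorant co-receptor, at 6.79, 5.84, 5.08 and 4.56 FPKM and Ir76b at 5.17, 4.98, 4.63 and 4.03 FPKM. A list of 15 antennal genes assembled after values were seen had summed levels of 144, 136, 49.3 and 71.9 FPKM in controls 1 to 4. Os-C had 17.8, 22.9, 4.04 and 9.51 FPKM, Obp83b 29.1, 19.1, 3.04 and 8.38 FPKM, and a10 22.4, 23.3, 3.22 and 12.7 FPKM. Each of these was lowest in control 3, next lowest in control 4, and at least 17.8 FPKM in controls 1 and 2. Control 3 was lowest for 6 of the 9 antennal genes with a computed spread, and control 4 for the other three. This spread did not depend on control 4, since the list's median corrected CV was 64.5% without it and 55.97% with it. The summed level was 108, 18.5, 193, 15.2 and 112 FPKM in Rab5 RNAi replicates 1 to 5 and 85.9, 46.8, 73.4 and 103 FPKM in the libraries labelled Rab7 RNAi. Libraries low in the sum of this list therefore occurred in Rab5 RNAi as well, where replicates 2 and 4 were the low ones. The 24 receptor genes did not show the drop of control 3, with sums of 31.3, 29.5, 29.1 and 27.1 FPKM in controls 1 to 4. In Rab5 RNAi their sums were 28.3, 27.0, 31.2, 23.0 and 32.1 FPKM, a far smaller range than that of the antennal list.

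Muscle genes were abundant and differed between libraries. All 22 reached 1 FPKM, with a median of 98.5 FPKM, and control 4 was highest for 17 of the 21 with a computed spread. Act57B, a muscle actin, had 820.5, 846, 741 and 1574 FPKM in controls 1 to 4, the myosin light chain Mlc2 598, 756, 551 and 810.0 FPKM and the myosin heavy chain Mhc 391, 449, 390.3 and 502 FPKM. Control 4 lay well above the others for Act57B, and its corrected CV was 39.02% with control 4 and 6.84% without it. For some muscle genes control 2 was the highest library: Act79B had 102, 249, 117 and 109 FPKM, Scp1, a muscle calcium-binding protein named after its values were seen, 23.96, 64.4, 43.3 and 20.01 FPKM and the flight muscle actin Act88F 10.3, 22.3, 12.2 and 17.4 FPKM. Act79B varied as much without control 4 as with it (51.8% and 48.5%).

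Fat body and blood cell genes were present at lower levels. Of 19 fat body genes, 13 reached 1 FPKM, led by the lipoprotein precursor apolpp at 138 FPKM ± 16.8 and the fatty acid synthase FASN1 at 129 FPKM ± 20.5 (SD, n = 4 each). Control 1 was highest for 11 of these 13. The storage protein gene Lsp1beta had 61.996, 32.8, 57.04 and 5.999 FPKM, Lsp2, another storage protein, 5.97, 2.65, 4.23 and 0.371 FPKM, and Lsd-1, which coats lipid droplets, 61.3, 41.2, 44.6 and 25.4 FPKM. All were lowest in control 4, although control 1 also exceeded control 2 for each of them. Among 17 blood cell genes, 15 reached 1 FPKM, and control 4 was highest for 14 of the 15. The scavenger receptor gene crq averaged 44.2 FPKM ± 4.28 and Hml, a clotting protein of blood cells, had 14.2, 11.5, 14.49 and 20.3 FPKM.

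Markers of tissues outside the head were mostly under 1 FPKM. No gene of 20 from the male accessory gland reached 1 FPKM. None of 8 from the salivary gland and proboscis list, mostly Sgs genes, did either. That list does not speak to tissue outside the head, because the proboscis is part of it. Of 45 gut digestive enzymes 8 did, led by the amylase genes Amy-p at 97.7, 86.8, 93.5 and 38.2 FPKM and Amy-d at 74.7, 61.8, 74.1 and 30.3 FPKM, near-identical copies whose reads may be split between them, and the maltase Mal-B2 at 49.9, 39.1, 41.4 and 51.7 FPKM. Of 18 testis genes 2 did, Mst77F at 3.59 FPKM ± 0.941 and betaTub85D at 1.89 FPKM ± 0.4005, and of 23 ovary genes 5 did, with grk highest at 20.4 FPKM ± 1.302 (SD, n = 4 each).

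Markers of both sexes were read next, since the labels give none. The yolk protein genes Yp1 and Yp2, secreted by the fat body of females, had 0.735, 0.135, 0.413 and 0.392 FPKM and 0.466, 0.369, 0.514 and 0.178 FPKM in controls 1 to 4, and fit, a female-biased fat body gene, 1.32, 0.613, 0.7304 and 0.866 FPKM. In the 9 RNAi libraries Yp1 and fit reached no more than 0.277 and 1.501 FPKM. Meanwhile roX1, a noncoding RNA of male dosage compensation (lncRNA:roX1), had 245, 239, 259 and 256 FPKM, and lncRNA:roX2 63.9, 69.002, 54.7 and 56.3 FPKM. These markers did not separate control 4 from the other controls. Yp3, a further yolk protein gene, stood at 47.5, 52.1, 43.5 and 49.1 FPKM, well above the others. None of 12 Y-linked genes reached 1 FPKM, and 7 were listed at 0.

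Genes that every cell uses differed between libraries in small but joint steps. All 81 cytosolic ribosomal protein genes were present, with a median of 1014 FPKM, and none had a corrected CV of 30% or more. Control 2 was highest for 75 of the 81 and control 3 lowest for 80, with median log2 deviations of 0.19 and -0.24 from the mean of the controls. RpL32, often used as a reference gene, had 1175, 1255, 897 and 1103 FPKM in controls 1 to 4. Nuclear genes of oxidative phosphorylation showed the same order at the top: control 2 was highest for 61 of the 62 assessed, and control 4 was lowest for 40. ATPsynC had 674, 737, 624 and 578 FPKM and UQCR-Q 192, 261, 176 and 152 FPKM. Gene length moved with this pattern, since over the 2222 shortest of the assessed genes (73 to 1377 bases) the median log2 deviation was 0.11 in control 2 and -0.09 in control 3, whereas over the 2225 longest it was -0.06 and 0.05. The part of length in the ribosomal and mitochondrial shifts was not tested.

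With control 4 included, tubulin genes had a median corrected CV of 7.43%, close to the 7.63% of all genes. Glycolysis genes were above that, at 10.1%. The order of these lists reversed without control 4, with medians of 7.199% for tubulin genes, 6.22% for glycolysis genes and 5.47% over all genes. The median level of glycolysis genes was 141 FPKM, and control 4 was highest for 11 of 17 and control 3 lowest for 14. Ald, the aldolase, had 430.2, 431, 411 and 538 FPKM and Gapdh2 395, 426, 382 and 539 FPKM, whereas Ldh, lactate dehydrogenase (FBgn0001258, 3L 6259105 to 6262694), had 53.2, 54.2, 42.997 and 213 FPKM. Among the 12 tubulin genes, 8 reached 1 FPKM. alphaTub84B had 819.9, 868, 759.9 and 826 FPKM, betaTub56D 453, 498, 414 and 428 FPKM and alphaTub84D 61.3, 62.1, 55.3 and 60.9 FPKM, and no tubulin gene had a corrected CV of 30% or more. betaTub60D, with 9.02, 9.15, 9.24 and 12.3 FPKM, was the tubulin for which control 4 stood furthest from the rest.

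Spread between the controls was measured as the corrected CV for the 8894 genes with a mean of at least 1 FPKM and at least 50 reads. The median was 7.63%, the middle of the distribution ran from 4.23% to 12.6% (quartiles), and for 913 genes the spread did not exceed counting error. A gene is called variable here at a corrected CV of 30% or more, a threshold of size and not a test. This was met by 292 of the 8894 genes, which is 3.28%. Spread differed between classes of level: the median was 9.22% at 1 to 10 FPKM, 6.90% at 10 to 100 and 10.1% at 100 to 1000. It was 12.4% for the 60 genes at 1000 FPKM or more, none of which was variable. Ribosomal protein genes, with a median level of 1014 FPKM, had a median corrected CV of 12.7%. Their part in the spread of the highest class was not tested. Without control 4 the median was 5.47% and 109 of 8885 genes (1.23%) were variable, of which 79 were also among the 292. Control 4 was the library farthest from the others in 216 of the 292 variable genes, higher in 129 and lower in 87. Over all 8894 genes it was farthest in 41.0%.

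The 10 steadiest genes at 10 FPKM or more had spreads within counting error, so their order carries no information. They included the kinesin-linked scaffold gene Aplip1 at 69.6 FPKM ± 0.525, the GTPase gene Rac1 at 47.5 FPKM ± 0.402 and the neurocalcin gene Nca at 116 FPKM ± 0.669 (SD, n = 4 each). At the other end, the 20 genes with the largest corrected CV at a mean of 5 FPKM or more included 6 immune peptide genes (DptA, Dro, DptB, AttC, CecA1 and CecC), the odorant carrier and antennal protein genes Obp99b, Obp83b and Os-C, the stress gene TotM, Ldh and the storage protein gene Lsp1beta. By list, 10 of 27 antimicrobial peptides, 9 of 25 odorant binding proteins, 3 of 7 opsins and 5 of 25 neuropeptides were variable, beside 3.28% of all genes. Without control 4 the same lists held 9, 7, 0 and 1 variable genes, so the opsin and neuropeptide counts rested mostly on that library. None of 81 ribosomal protein genes or 62 oxidative phosphorylation genes was variable.

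**Figure D3:**
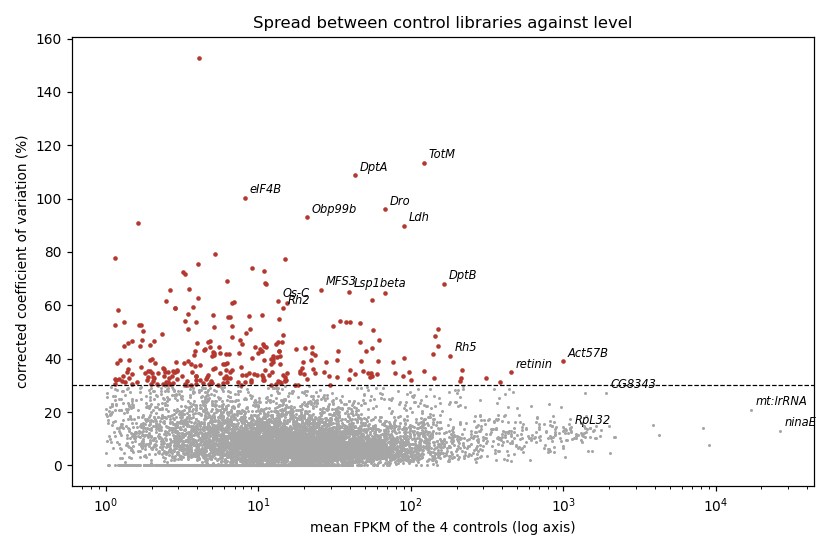
Corrected coefficient of variation (%) of the 4 controls against mean FPKM (log axis) for 8894 genes, 1 point per gene, with genes at 30% or more (dashed line) in red and some named. The median is 7.63%, and the highest point, near 4 FPKM, is the ribosomal RNA pseudogene 28SrRNA-Psi:CR45851, with 1.16, 0.252, 1.48 and 13.4 FPKM in controls 1 to 4.

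Immune peptides split into a variable and a steady group. Diptericins, attacins, cecropins and drosocin, peptides that in flies are induced mainly through the Imd pathway, had summed levels of 593, 153, 296 and 839 FPKM in controls 1 to 4, and all 8 with a computed spread were variable. DptB (FBgn0034407, 2R 18867391 to 18867895) had 257, 51.9, 84.9 and 265 FPKM, DptA 34.9, 7.32, 18.5 and 111 FPKM and Dro, drosocin, 57.8, 16.2, 35.6 and 163 FPKM. Control 2 was lowest for all 8 and control 4 highest for 7. AttC had 82.1, 16.4, 36.6 and 86.7 FPKM, and AttA and AttB, near-identical copies, 83.8, 32.7, 50.6 and 78.3 FPKM and 53.001, 22.5, 37.8 and 73.2 FPKM. PGRP-SB1, a secreted peptidoglycan-binding amidase named after its values were seen, followed the same order with 82.7, 30.98, 43.6 and 90.5 FPKM, and so did metchnikowin (Mtk) with 160.0, 81.5, 107 and 215 FPKM. The bomanins, induced in flies mainly through Toll, and other immune-induced genes listed with them were steadier: their summed level was 2891, 2791, 2805 and 2232 FPKM and none of 13 was variable. IM33, listed with the bomanins but not named as one, had 565, 525, 498 and 481 FPKM. The bomanin gene IM3 had 478, 492, 485 and 405 FPKM, and drosomycin (Drs) 511, 528, 568 and 279 FPKM. Control 4 was lowest for all of them. Defensin (Def) fitted neither order, with 12.1, 16.4, 32.2 and 28.8 FPKM. Without control 4, 7 of the Imd-type genes still were variable, at a median corrected CV of 66.7%. Both peptide lists were assembled after values were seen.

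Stress genes did not share 1 pattern. TotM (FBgn0031701, 2L 5329857 to 5330464), a secreted Turandot stress protein gene, had 78.5, 39.98, 41.7 and 328 FPKM in controls 1 to 4, with control 4 alone at the high end. TotA, of the same family, had 71.3, 55.7, 54.9 and 27.5 FPKM and was lowest in control 4. vir-1, a virus-induced gene, had 380.4, 341, 306 and 365 FPKM. Heat shock and chaperone genes were low in control 4, which was lowest for 19 of 25 of them. Hsp83, the Hsp90 chaperone, had 488, 475, 458 and 249.8 FPKM, Hsp26 269, 248, 219.8 and 112 FPKM, Hsp60A 394, 435, 387 and 273 FPKM and Hsc70-4 1007, 1045, 956 and 819.9 FPKM. Among glutathione S-transferases 3 of 30 were variable, including GstE8 at 11.5, 13.5, 6.91 and 21.8 FPKM and GstE4 at 14.1, 15.8, 8.19 and 5.14 FPKM, neighbours in a gene cluster. GstE8 was highest in control 4 and GstE4 was lowest there.

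Some variable genes singled out a library other than control 4. eIF4B, a translation initiation factor gene (FBgn0020660, 3L 27842669 to 27858271), had 20.5, 4.796, 3.63 and 3.83 FPKM in controls 1 to 4, so that control 1 stood apart from 3 close values. In the libraries labelled Rab7 RNAi it had 23.6, 22.9, 5.06 and 15.5 FPKM in replicates 1 to 4 and in Rab5 RNAi 3.85, 3.897, 2.73, 5.16 and 5.199 FPKM, so both levels occurred among the Rab7-labelled libraries too. Obp99b was highest in control 1 and ranged widely, with 48.996, 18.5, 12.03 and 4.35 FPKM in controls. A further pair singled out control 4 again: Cyp4g1, a cytochrome P450 of cuticular hydrocarbon synthesis, had 8.78, 10.5, 4.84 and 0.807 FPKM, and MFS3, a transporter gene, 19.8, 17.05, 15.3 and 51.3 FPKM.

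**Figure D4:**
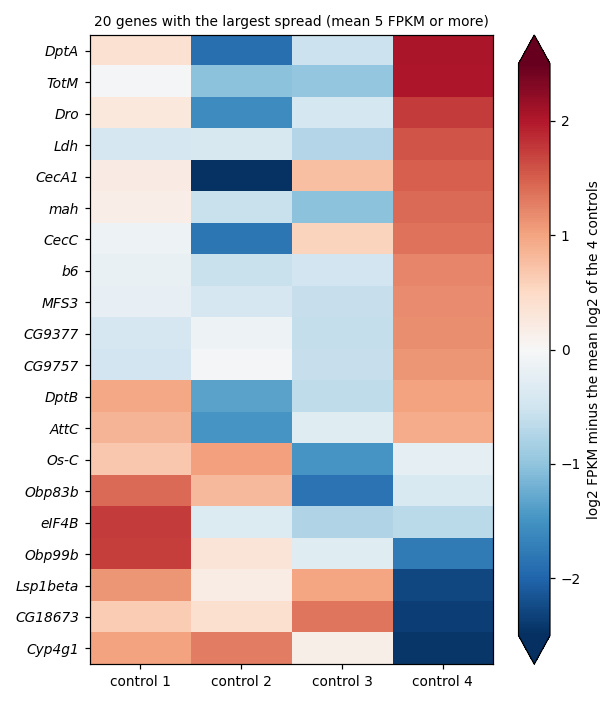
The 20 genes with the largest corrected CV at a mean of 5 FPKM or more (rows) in the 4 controls (columns), coloured by log2 FPKM minus the mean log2 of the controls, with colours saturating beyond the scale. Control 4 is the reddest column in the upper rows and the bluest in the lowest rows, control 2 is low for DptA, Dro, DptB, AttC, CecA1 and CecC, control 3 is low for Os-C and Obp83b, and control 1 is high for eIF4B.

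Many of the genes that varied among controls also varied within the RNAi groups. Within Rab5 RNAi the median corrected CV was 12.3%, and 990 of 8964 genes (11.0%) were variable. Within the libraries labelled Rab7 RNAi it was 10.04%, and 558 of 8940 genes (6.24%) were. Of the 248 variable control genes with a computed spread in Rab5 RNAi, 164 (66.1%) were variable there too, or 18.7% of that group's variable genes, beside 10.1% of all genes computed in both. In the libraries labelled Rab7 RNAi it was 135 of 262 (51.5%), or 26.9% of that group's variable genes, beside 5.72%. With controls 1 to 3 alone the shares were 51 of 81 (63.0%) and 37 of 88 (42.0%).

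For several genes the level in control 4 was also found in particular RNAi libraries. Act57B had 1541, 667, 709, 688 and 1486 FPKM in Rab5 RNAi replicates 1 to 5, 1438, 653, 666 and 1445 FPKM in the libraries labelled Rab7 RNAi and 820.5, 846, 741 and 1574 FPKM in controls. Hsp83 had 249, 683, 765, 723 and 235 FPKM in Rab5 RNAi, 289, 770.3, 715 and 258 FPKM in the libraries labelled Rab7 RNAi and 488, 475, 458 and 249.8 FPKM in controls. In both cases Rab5 RNAi 1 and 5, Rab7-labelled 1 and 4 and control 4 had similar values, on the other side of a gap from the remaining 8 libraries. Rh5 had 30.3, 188, 208 and 36.1 FPKM in the libraries labelled Rab7 RNAi, where replicates 1 and 4 were again the low ones. MFS3 had 46.1, 20.95, 20.3 and 47.2 FPKM in those libraries, with replicates 1 and 4 near the level of control 4. TotM was different: in Rab5 RNAi it had 25.4, 160.0, 194, 116 and 18.6 FPKM, with replicates 1 and 5 the lowest, while control 4 was the highest of all 13 libraries. No label marks these libraries, and what they share was not tested.

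**Figure D5:**
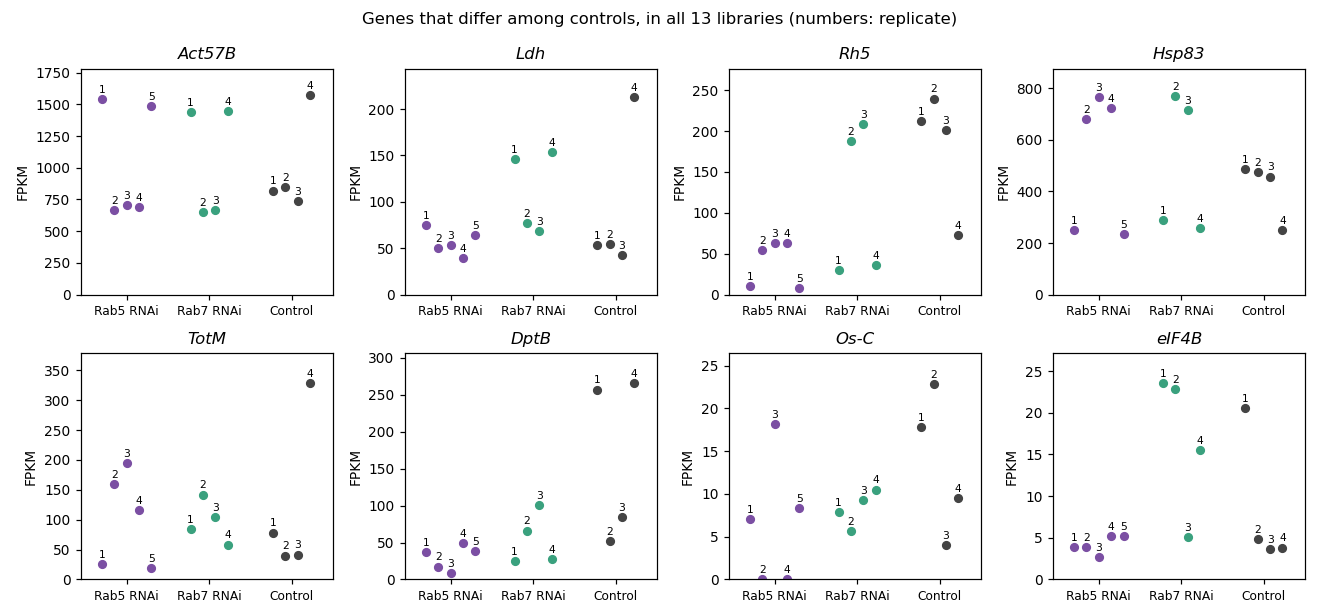
FPKM of 8 genes in all 13 libraries, grouped as Rab5 RNAi (n = 5), Rab7 RNAi as labelled (n = 4) and control (n = 4), 1 point per library with its replicate number. For Act57B and Hsp83, control 4 lies with Rab5 RNAi 1 and 5 and Rab7-labelled 1 and 4, whereas for TotM it lies above every other library.

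The controls' own levels were last set against the RNAi groups with limma on log2(FPKM + 1) over 10038 genes. At a Benjamini-Hochberg adjusted p below 0.05, 1761 genes (17.5%) were called in Rab5 RNAi, 829 higher (8.26%) and 932 lower (9.28%), and 322 (3.21%) in the libraries labelled Rab7 RNAi, 165 higher (1.64%) and 157 lower (1.56%). The Rab5 RNAi count was 1166 without control 1 and 1172 without control 2. For the libraries labelled Rab7 RNAi it was 169 without control 1, 194 without control 2, 165 without control 3, and 169 and 188 without replicates 1 and 4 of the RNAi group. Of the 20 highest control genes, 6 were called in Rab5 RNAi (4 lower, 2 higher) and 1 in the libraries labelled Rab7 RNAi. Leaving out 1 library at a time gave 4 to 7 for Rab5 RNAi. For the libraries labelled Rab7 RNAi it gave 0 without control 1, 3 or 4 or without replicate 1 or 4 of the RNAi group, 2 without control 2, and 1 otherwise. Of the genes variable among controls, 285 were tested, and 83 of them (29.1%) were called in Rab5 RNAi and 16 (5.61%) in the libraries labelled Rab7 RNAi. With 1 library left out at a time these counts ran from 49 to 89 and from 6 to 26, with 51, 49 and 52 for Rab5 RNAi without controls 1, 2 and 3. For the libraries labelled Rab7 RNAi the count was 6, 10 and 8 without replicates 1, 2 and 4 of the RNAi group, and 7, 8, 6 and 26 without controls 1 to 4. The genes variable among controls 1 to 3 were called at 19.2% and 2.88%. The highest and the variable genes were chosen on the control values that enter these comparisons, so their counts are a description only. AttC had 2.49, 7.38, 24.5 and 4.52 FPKM in the libraries labelled Rab7 RNAi and 82.1, 16.4, 36.6 and 86.7 FPKM in controls, a log2 difference of -2.54 (SE 0.72) that did not pass (limma adjusted p = 0.076). DptB had 36.8, 17.4, 8.91, 49.6 and 38.9 FPKM in Rab5 RNAi and 257, 51.9, 84.9 and 265 FPKM in controls and fell by 2.31 in log2 units (limma adjusted p = 0.021, SE 0.62), although control 2 lay close to the highest Rab5 RNAi library. Members of the same peptide list went both ways in Rab5 RNAi. AttC also fell, by 2.66 (limma adjusted p = 0.017). CecA1, CecC, DptA and Dro had log2 differences of 1.98, 1.46, 1.19 and 0.99, none of which passed. AttA and AttB, at -0.0024 and -0.32, did not pass either. The list's summed level in Rab5 RNAi, 538, 480, 263, 302 and 699 FPKM, overlapped that of the controls. Arc1, an activity-regulated gene, had 1572, 1311, 1737, 1520.0 and 1448 FPKM in Rab5 RNAi and 180.4, 232, 161 and 309 FPKM in controls, and rose by 2.82 in log2 units (SE 0.30, limma adjusted p = 5.13e-05), a gap wider than the spread of the controls.

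A pair of genes named after their values were seen separated the controls from every RNAi library whatever the RNAi target. mthl8, a gene of the methuselah-like receptor family, was listed at 0 in all 9 RNAi libraries and had 34.05, 30.1, 33.8 and 27.5 FPKM in controls. y, the yellow gene of dark cuticle pigment, had 17.7, 38.2, 45.2, 39.2 and 16.7 FPKM in Rab5 RNAi, 6.67, 14.45, 15.8 and 7.27 FPKM in the libraries labelled Rab7 RNAi and 0.106, 0.0798, 0.136 and 0.0282 FPKM in controls. Both passed in both comparisons (limma adjusted p from 9.34e-13 to 1.07e-04), and their control levels did not overlap those of either RNAi group. The labels do not describe the strain backgrounds of the crosses beyond the driver and the RNAi line.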

How the data were processed

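Whole-head RNA of 13 libraries (5 Rab5 RNAi, 4 Rab7 RNAi, 4 control) was described for the 4 controls. The authors deposited FPKM values for 18344 genes, and CASAVA, without a version, is the tool named in the submitters' processing notes. For aligner, read counter, strandedness, genome build and gene models, the entry is: not given in the sources used here. Of 17626 identifiers in a BDGP6 annotation, 17502 (99.3%) had the same start and end there. Coordinates are those of the deposited table. There, 13 columns of per-sample values were left aside, and 5 gene names that had turned into dates were repaired.

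Multiplying the deposited FPKM by gene length gave, in each library, integer multiples of a fixed unit (182918 of 182918 non-zero values, tolerance 0.05), so reads on genes were recovered. They gave the depth and the counting error. A scaling across libraries was already in the deposited FPKM, and no further scaling was applied. Reads are not independent molecules, so counting error covers counting only.

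Mean, SD and CV were computed over the controls with Python 3.11.15 and numpy 2.4.6. The corrected CV is the square root of the squared CV minus 1 over the mean reads, or 0 where that is negative, for genes with a mean of at least 1 FPKM and 50 reads. limma 3.58.1 in R 4.3.3, using its trend and robust options, modelled log2(FPKM + 1) of all 13 libraries for genes with a mean of at least 1 FPKM, and a call needed a Benjamini-Hochberg adjusted p under 0.05. The scripts were tested on simulated data. The design had assumed that the tests might run on counts, but the files hold FPKM.

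The members, the 36 gene lists and the tests were chosen with earlier results of these data known, and 4 further lists were assembled after values were seen. Of 811 list symbols, 35 had no match. Genes are named as the 20 highest, per list the 3 highest and the 2 most variable, all opsins, tubulins and sex-biased genes, the 20 largest corrected CVs (means of at least 5 FPKM), the 10 smallest uncorrected CVs (means of at least 10 FPKM), Rab5, Rab7 and the 3 highest genes of chromosomes X, 4 and Y. Not every gene that this rule takes is printed. Genes outside this rule were named after their values were seen: brp, repo, Pdf, Hml, Mtk, Def, PGRP-SB1, AttA, AttB, a10, Scp1, CarT, Ilp2, Ilp3, lncRNA:CR42862, lncRNA:noe, mthl8, y and 28SrRNA-Psi:CR45851.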

Additional observations from a re-analysis of the deposited data

Results flagged for a closer look

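Over 180 sets of 4 control values (genes named in the text, summed gene lists and library totals), 22 held a library whose gap to its nearest neighbour was a larger share of the whole range than Dixon's 95% critical value. Chance alone flags about 5% of such sets, but many of these genes were named for their spread, so the 2 rates cannot be compared. Control 4 was that library in 19 of the 22, and the cause was not tested.

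Control 4 was the high library for the muscle actin Act57B at 1574 FPKM, lactate dehydrogenase Ldh at 213 FPKM, the stress gene TotM at 328 FPKM, the aldolase Ald at 538 FPKM and the transporter MFS3 at 51.3 FPKM. It was also high for the eye genes CarT at 83.3 FPKM, chp at 409 FPKM and ninaB at 77.8 FPKM. Further genes high in control 4 were the glial gene wrapper at 51.6 FPKM, betaTub60D at 12.3 FPKM and the pseudogene 28SrRNA-Psi:CR45851 at 13.4 FPKM. Summed levels there reached 962.5 FPKM for retinoid and opsin maturation and 1459 FPKM for photoreceptor structure.

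Control 4 was the low library for Rh2 at 1.73 FPKM, Rh4 at 206 FPKM, Hsp83 at 249.8 FPKM, IM3 at 405 FPKM and the bomanins and genes listed with them at a summed 2232 FPKM. It was also low for repo at 26.8 FPKM, against 27.8 to 27.9 FPKM in the other controls, a difference within counting error.

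Control 2 was the high library for the muscle actin Act79B at 249 FPKM and for Obp19d at 727 FPKM. Control 1 was the high library for eIF4B at 20.5 FPKM.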

How the results depend on the processing

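Scaling to plain read totals or by TMM left 300 and 287 variable genes (292 as deposited), a median corrected CV of 7.80% and 7.66% (7.63%), and 9923 and 9957 genes at 1 FPKM or more (9942). With 1 control left out at a time the number of variable genes ran from 109 (without control 4) to 408, the median corrected CV from 5.47% to 8.11%, the genes at 1 FPKM or more from 9897 to 9980 and the share of the 20 highest genes from 19.4% to 20.6%. The rule for a variable gene set its count: 910 genes with a minimum of 10 reads and no FPKM minimum, 122 with a mean of at least 10 FPKM, 62 at a corrected CV of at least 50%, and 296 and 460 with an SD of log2(FPKM + 1) or log2(FPKM + 0.1) of at least log2(1.3). Without the counting correction the median CV was 9.10%. The limma counts ran from 1166 to 1780 for Rab5 RNAi and from 165 to 295 for the libraries labelled Rab7 RNAi when 1 library was left out. They stayed within 1.5 times under a pseudocount of 0.1, no filter on low values and plain read totals. Samples share replicate numbers, but same-numbered deviations from the group means correlated between -0.16 and 0.30, so the numbers do not pair the samples and a library did not correlate best with its own number in 7 of 8 cases. With the replicate block limma called 1946 and 422 genes. The planned edgeR and DESeq2 alternatives on recovered reads were not run. Of 220 corrected CVs computed for named genes, 20, 12, 8 and 25 crossed 30% without controls 1, 2, 3 and 4. Depth limits the low genes: at 1 to 10 FPKM the median counting error was 7.38%, near the corrected spread of 9.22%.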
